A study of Arabidopsis thaliana with 6 samples.

Results

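Glutathione transferases were examined in RNA from light-grown Arabidopsis thaliana seedlings, hybridised to 6 Affymetrix ATH1 arrays. On such an array each gene is read by a probe set, a group of short oligonucleotides. The genes were taken by name: every probe set that the platform annotation pairs with 1 gene, and whose gene symbol is GST followed by a class letter (U, F, Z, T or L) and a number. This gave 13 genes, each with 1 probe set, of 13356 genes that had a single-gene probe set, 11 of class U (tau), 1 of class F (phi) and 1 of class L (lambda). No gene of class Z (zeta) or T (theta) was found by the rule. A list of 49 family loci written from general knowledge held 14 with a single-gene probe set, the 13 and ATGSTF13, whose symbol lies outside the rule. The other 35 loci were not analysed here.

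The wild type group held 3 arrays, from plants of accession Col-0 and the mutant group held 3, from plants called a VFB triple mutant in the labels, which do not name the mutated VFB genes. VFB proteins belong to the F-box proteins, as the auxin receptors do. The descriptions give an age of 10 days for all samples, but the source names give 10 days for wild type and 5 days for the mutant, and the extract protocol of mutant replicate 3 speaks of No-0 wild type plants. Arrays were grouped by title, and genotype, age and accession cannot be told apart where these labels differ. VFB genes had no probe set named here, so the mutation itself was not checked.

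Glutathione transferases join the tripeptide glutathione to reactive, often toxic, small molecules, which makes these more soluble and marks them for transport into the vacuole. The tau and phi classes are the large plant classes and are known for detoxifying herbicides and for being switched on by stress and by hormones, and some tau genes were first found in tobacco as auxin-induced genes. Lambda enzymes carry a cysteine in the active site and take part in reductions rather than in joining glutathione on. Many tau genes lie side by side on the chromosome as products of tandem duplication.

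Values below are MAS5 signals, a linear probe set brightness scaled to the same trimmed mean on each array. Changes are differences of log2(signal + 16), mutant minus wild type, with the standard error of the limma fit, and this scale understates the change of dim genes. Genes entered the test if their mean log2 value exceeded the 40th percentile of all gene probe sets, which corresponds to a signal of about 109, and a gene was called when its limma p, adjusted over all 13647 tested probe sets, was under 0.05. Of the 13 genes 8 were tested, 7 of class U and GSTL3, and 5 lay under the filter. Across those tested, 1 gene rose, 2 fell and 5 did not pass. Over all tested probe sets 18.6% were called, 8.17% higher and 10.4% lower, so that 3 called of 8 is a count too small to be set apart from the background. Rises were 43.9% of all calls on the deposited scale, and 61.8% once the array medians had been made equal.

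The gene that rose was GSTU16 (AT1G59700, probe set 262916_at), a tau class enzyme. Its signal was 419.1, 408.3 and 335.1 in wild type replicates 1 to 3 and 703.7, 763.2 and 599.1 in mutant replicates 1 to 3. Every mutant array was above every wild type array, and the lowest array of each group was replicate 3. The means were 387.5 ± 45.7 in wild type and 688.7 ± 83.1 in the mutant (SD, n = 3 each), and the log2 change was 0.80 ± 0.138, or 1.75-fold (limma, adjusted p = 0.00162). GSTU16 passed under all 15 alternative settings tried, which included leaving out each array, with changes from 0.71 to 0.90.

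The larger of the called falls was in GSTU26 (AT1G17190, probe set 262516_at), also of the tau class. It read 297.4, 257.8 and 272.0 in wild type and 144.0, 192.2 and 113.6 in the mutant. The groups did not overlap, and the mutant arrays were spread more widely than the wild type arrays, with a coefficient of variation of 26.4% against 7.28%. The mean went from 275.7 ± 20.1 to 149.9 ± 39.6 (SD, n = 3 each), a log2 change of -0.84 ± 0.187, a 1.79-fold fall (limma, adjusted p = 0.00802). It passed in all 14 settings that kept it, with changes from -1.02 to -0.67. The stricter filter, at the 60th percentile, removed it.

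GSTU22 (AT1G78340, probe set 260803_at) fell by less. It read 320.6, 415.7 and 405.6 in wild type and 224.6, 295.5 and 282.3 in the mutant. In both groups replicate 1 was the lowest array, and the highest mutant array was below the lowest wild type array. The log2 change was -0.48 ± 0.157, a 1.40-fold fall (limma, adjusted p = 0.0487). The call sits at the threshold: it held in 5 of 15 settings, and among those leaving out an array it held only without wild type replicate 1 (adjusted p = 0.0315), while it was lost without wild type replicate 2 (0.171) or 3 (0.148) and without mutant replicate 1 (0.151), 2 (0.0614) or 3 (0.0679).

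**Figure D1:**
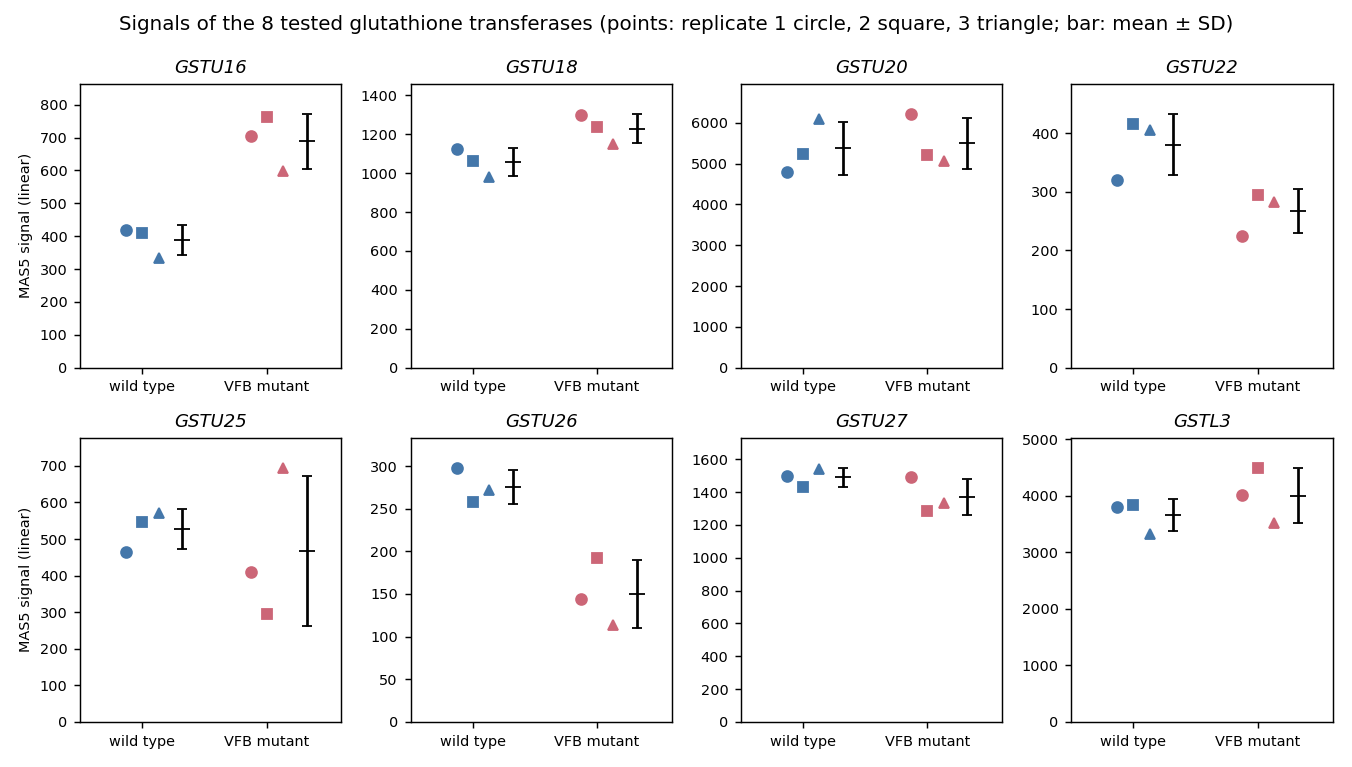
MAS5 signal on a linear axis from 0 for each of the 8 tested genes, with 1 point per array (replicate 1 circle, 2 square, 3 triangle; blue wild type, red mutant) and the mean ± SD beside them. GSTU16 is higher on every mutant array and GSTU22 and GSTU26 are lower on every mutant array, whereas the mutant arrays of GSTU25 run from 295.5 to 693.5, on both sides of wild type.

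The other 5 tested genes did not pass. GSTU18 (AT1G10360) read 1125.4, 1065.1 and 979.6 in wild type and 1299.2, 1238.8 and 1150.1 in the mutant. Each mutant array was above each wild type array, by little, and the log2 change was 0.22 ± 0.108 (95% interval -0.02 to 0.45; limma, adjusted p = 0.197). The groups did not overlap in 4 of the 8 tested genes, GSTU16 and GSTU18 with the mutant above and GSTU22 and GSTU26 with it below, and over all tested probe sets this was so in 36.1%.

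GSTU20 (AT1G78370) is also known as FIP1, a partner of the jasmonate-conjugating enzyme FIN219 in light signalling. It read 4798.1, 5239.0 and 6082.5 in wild type and 6214.4, 5202.4 and 5066.2 in the mutant. The groups overlapped throughout, and the change was 0.03 ± 0.118 with a 95% interval of -0.22 to 0.29, which leaves out changes in either direction as large as that of GSTU16. GSTU27 (AT3G43800) read 1495.9, 1430.7 and 1541.3 against 1494.5, 1285.6 and 1330.5, a change of -0.12 ± 0.105 (95% interval -0.35 to 0.11). The lambda gene GSTL3 (AT5G02790) read 3802.0, 3845.4 and 3334.3 against 4009.6, 4485.8 and 3513.7, a change of 0.12 ± 0.113 (95% interval -0.12 to 0.37). In both genes the groups overlapped. These small changes shifted with single arrays: GSTL3 was at 0.039 without mutant replicate 2, 0.059 without wild type replicate 3 and 0.214 without mutant replicate 3, and GSTU27 at -0.185 without mutant replicate 1 and -0.077 without mutant replicate 2.

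GSTU25 (AT1G17180), an enzyme known for conjugating the explosive TNT, was the least even of the tested genes. It read 464.6, 546.4 and 569.9 in wild type and 410.9, 295.5 and 693.5 in the mutant, so that the mutant arrays held both its lowest and its highest signal. Its SD between arrays of 1 group was 0.44 on the log2 scale, against a median of 0.17 over all tested probe sets. The log2 change was -0.25 ± 0.232 (95% interval -0.75 to 0.25; limma, adjusted p = 0.506). Without mutant replicate 3 it was -0.57 (adjusted p = 0.0409), and without mutant replicate 2 it was 0.02 (adjusted p = 0.956), so single arrays decide this value.

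**Figure D2:**
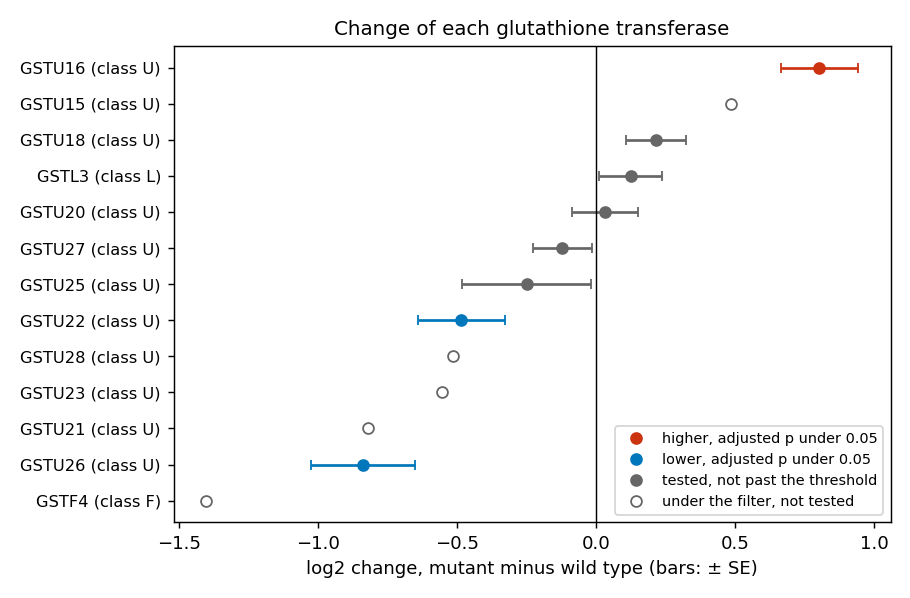
Log2 change, mutant minus wild type, of all 13 genes on the log2(signal + 16) scale, ordered by size, with ± SE bars for the 8 tested genes and open points for the 5 under the filter. The changes run from -1.40 in GSTF4 to 0.80 in GSTU16, and the class U genes lie on both sides of 0.

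Several of these genes lie in short runs. In the RefSeq annotation (TAIR10.1) GSTU20, GSTU21, GSTU22 and GSTU23 follow each other with 0 other protein-coding genes between neighbours, and so do GSTU25 and GSTU26. For GSTU22 against GSTU20, which have 1 gene (GSTU21) between them, the difference between the log2 changes was -0.52, with the GSTU22 to GSTU20 log ratio lower on every mutant array than on every wild type array (exact two-sided permutation test, p = 0.1, the smallest that 3 against 3 allows; 0.2 after Benjamini-Hochberg adjustment over the 2 pairs that share a run and had both genes tested). For the adjacent genes GSTU26 and GSTU25 the difference was -0.59, but the groups overlapped (exact permutation p = 0.5, adjusted 0.5). As 3 against 3 arrays cannot give a p under 0.1, this test cannot decide whether either pair differed at 0.05. In that pair mutant replicate 3 had the lowest GSTU26 signal (113.6) and the highest GSTU25 signal (693.5), and mutant replicate 2 had the highest mutant GSTU26 signal (192.2) and the lowest GSTU25 signal (295.5). All 13 probe sets carry the plain _at suffix, which Affymetrix gives to sets designed to match 1 transcript. Cross-hybridisation between neighbouring copies was not tested.

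The 5 dim genes were not tested in the fit as reported, and their values are a description. GSTF4 (AT1G02950), the phi gene, read 142.6, 103.8 and 106.5 in wild type and 65.2, 10.2 and 43.2 in the mutant. Its highest mutant signal was below its lowest wild type signal, and the log2 change was -1.40, with mutant replicate 2 far below the other mutant arrays. Without that array the change was -0.93. When all 22746 gene probe sets were tested without a filter, where 9.32% were called, 4.26% higher and 5.06% lower, GSTF4 was lower by -1.40 ± 0.388 (limma, adjusted p = 0.0495), and GSTU16 (adjusted p = 0.00494) and GSTU26 (adjusted p = 0.0253) were also called. GSTU22 was not (adjusted p = 0.0908), nor were the other 4 dim genes.

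GSTU23 (AT1G78320) lay just under the filter, with a mean log2 value of 6.81 against a limit of 6.96. It read 119.2, 111.3 and 130.1 in wild type and 89.8, 64.4 and 77.3 in the mutant, without overlap, and its log2 change was -0.55 (without filter, adjusted p = 0.157). GSTU21 (AT1G78360), the third member of that run with a lower mean in the mutant, read 38.3, 17.0 and 19.2 against 7.3, 9.7 and 3.1, a log2 change of -0.82 that moved between -1.76 and -0.32 with the offset added before taking logs. GSTU28 (AT1G53680) read 92.1, 63.1 and 35.9 against 38.4, 59.0 and 21.2, a log2 change of -0.52, and the groups overlapped. Without wild type replicate 1 or mutant replicate 3 its change was -0.26, and without wild type replicate 3 it was -0.79. GSTU15 (AT1G59670), which has 3 genes between it and GSTU16, read 2.0, 2.5 and 4.2 against 4.9, 23.9 and 6.2. At these signals its log2 change of 0.49 rests on values near 0 and on mutant replicate 2, without which it was 0.19. The groups did not overlap in 4 of the 5 dim genes, against 15.7% of all probe sets under the filter. The mutant was below in GSTF4, GSTU21 and GSTU23, against 8.53% of those probe sets, and above in GSTU15, at signals near 0. These are only 5 genes, GSTU21 and GSTU23 lie in the same run, and a departure from these shares was not tested.

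**Figure D3:**
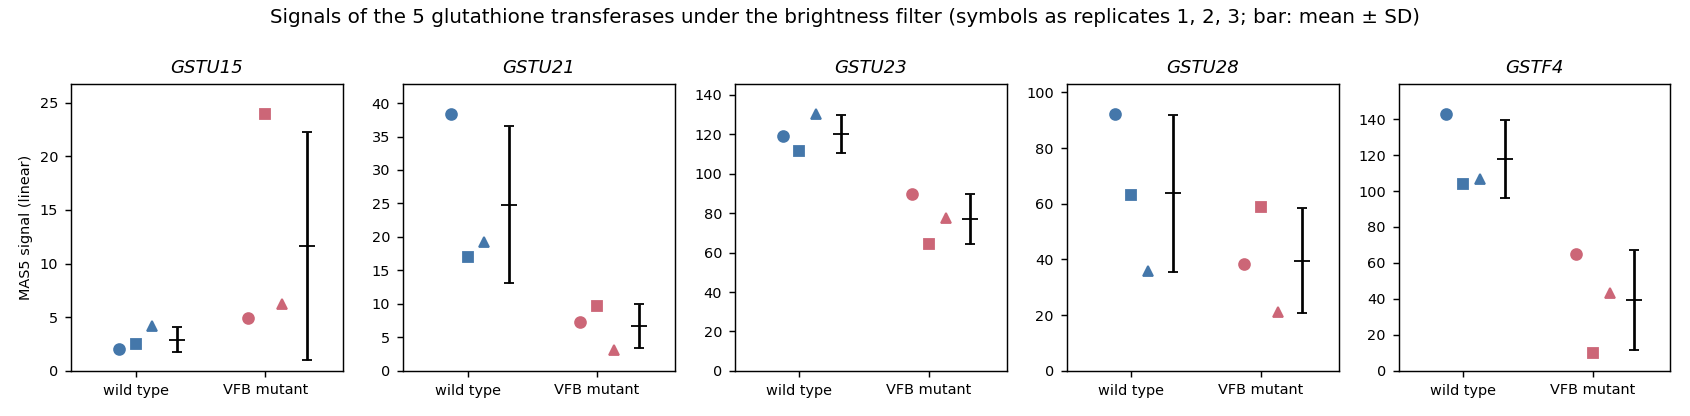
MAS5 signal on a linear axis from 0 for the 5 genes under the filter, drawn as 1 point per array with the mean ± SD beside them. GSTF4, GSTU21 and GSTU23 are lower on every mutant array, and 1 mutant array (replicate 2, square) sets the mean of GSTU15.

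By class, the 7 tested tau genes had a median log2 change of -0.12 and a median size of change of 0.25, against -0.05 and 0.20 over all tested probe sets. Of all 11 tau genes, dim ones included, 7 had a log2 change below 0. At least 52.8% of all tested probe sets were below 0 as well, and 11 genes are too few to be set apart from that. The phi and lambda classes were represented by 1 gene each, GSTF4 at -1.40 and GSTL3 at 0.12, so a class cannot be told apart from a gene in these data. ATGSTF13 (AT3G62760), a second phi gene outside the naming rule and also under the filter, read 64.5, 60.2 and 88.6 in wild type and 40.4, 49.1 and 37.9 in the mutant, and its log2 change was -0.57.

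Enzymes that supply, reuse or use glutathione were read from a list of 52 genes. It also held transporters, transcription factors and other detoxification enzymes. Of the 52 genes 3 had a probe set named here, and all 3 were tested. GR (AT3G54660), the glutathione reductase of chloroplasts and mitochondria, rose. It read 2224.3, 1768.1 and 1764.4 in wild type and 2570.5, 3228.1 and 3245.7 in the mutant, every mutant array above every wild type array, with a log2 change of 0.65 ± 0.128 or 1.57-fold (limma, adjusted p = 0.00391). Over all tested probe sets 8.17% were called higher, and 15.0% had every mutant array above every wild type array. GR1 (AT3G24170), the cytosolic and peroxisomal reductase, changed by 0.28 ± 0.116 and its groups overlapped (adjusted p = 0.118), and it was called after median centring (0.37, adjusted p = 0.0454). SIR, sulfite reductase on the route from sulfate to cysteine, changed by -0.12 ± 0.119. Genes of glutathione synthesis, the glutathione peroxidase-like and dehydroascorbate reductase genes, the vacuolar ABCC transporters and the TGA transcription factors were not analysed here.

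A further 20 genes of thiol and sulfur metabolism were picked by symbol after the annotation had been read, and 19 were tested, of which 1 rose and 1 fell, where 8.17% and 10.4% of all tested probe sets did. MSRB6, a methionine sulfoxide reductase, which repairs oxidised methionine, read 921.5, 648.5 and 848.2 in wild type and 1339.1, 2014.2 and 1832.7 in the mutant, a 2.11-fold rise (log2 change 1.08 ± 0.164; limma, adjusted p = 0.000742). The other methionine sulfoxide reductases tested did not pass, among them MSRB5 (0.34 ± 0.127), MSRB9 (-0.27 ± 0.142) and MSRA5 (-0.22 ± 0.151). GLX2-1, which the annotation names as a glyoxalase II, read 882.3, 922.3 and 890.8 against 539.1, 580.9 and 678.8, a 1.49-fold fall (log2 change -0.58 ± 0.120; limma, adjusted p = 0.00527). Glyoxalase II enzymes release glutathione from its lactoyl ester, but whether GLX2-1 has this activity was not measured here. The GLX2-1 relatives GLX2-5 (0.24 ± 0.129) and GLX2-4 (0.21 ± 0.126) did not pass. The 17 that did not pass, these included, changed by between -0.45 and 0.35. Among them were the ATP sulfurylase genes APS3 (-0.45 ± 0.153) and APS4 (0.35 ± 0.144), the thylakoid ascorbate peroxidase TAPX (-0.28 ± 0.106), the monodehydroascorbate reductase ATMDAR2 (-0.10 ± 0.137), the stromal ascorbate peroxidase SAPX (0.02 ± 0.152), the thioredoxin reductase NTRC (0.27 ± 0.098), and the glutaredoxins GRXC1 (0.19 ± 0.131) and GRXC2 (0.13 ± 0.099).

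For each called glutathione transferase, the genes most like it over the 6 arrays were found among 13512 other single-gene probe sets, by the root mean square difference of log2 values after subtracting each gene's mean. They were chosen for this pattern, so their values are a description. Nearest to GSTU16 were AT1G66330 (0.07), AT4G39780 (0.08) and AT1G04350 (0.09). Nearest to GSTU26 were AT2G15320 (0.06), AT1G19540 (0.09) and AT1G01240 (0.10), and nearest to GSTU22 were AT5G18150 (0.06), AT4G26550 (0.07) and AT1G55590 (0.07). All 3 genes nearest to GSTU26 shared with it the order of the 3 mutant arrays. The nearest, AT2G15320, read 126.7, 156.3 and 105.0 in the mutant, below 247.6, 227.0 and 234.1 in wild type.

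Some other measures moved with the groups. The 3' to 5' signal ratio of the actin control was 2.55 to 3.00 in wild type and 3.19 to 3.56 in the mutant, while those of GAPDH and ubiquitin overlapped between the groups. Of 2 root markers, the root hair peroxidase gene AT4G26010 was lower in the mutant (184.6 ± 6.61 against 84.7 ± 42.1, SD, n = 3 each) and PYK10 was not called (12899 ± 468 and 14947 ± 2357). Both leaf photosynthesis markers with a probe set, RCA (0.28 ± 0.104) and LHCB4.1 (0.19 ± 0.107), were above wild type on every mutant array without passing. Over all tested probe sets, 15.0% had every mutant array above every wild type array. The part of RNA quality, or of a different share of root and leaf, in the changes above was not tested, and in whole seedlings fewer cells of a type and less RNA per cell cannot be told apart.

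**Figure D4:**
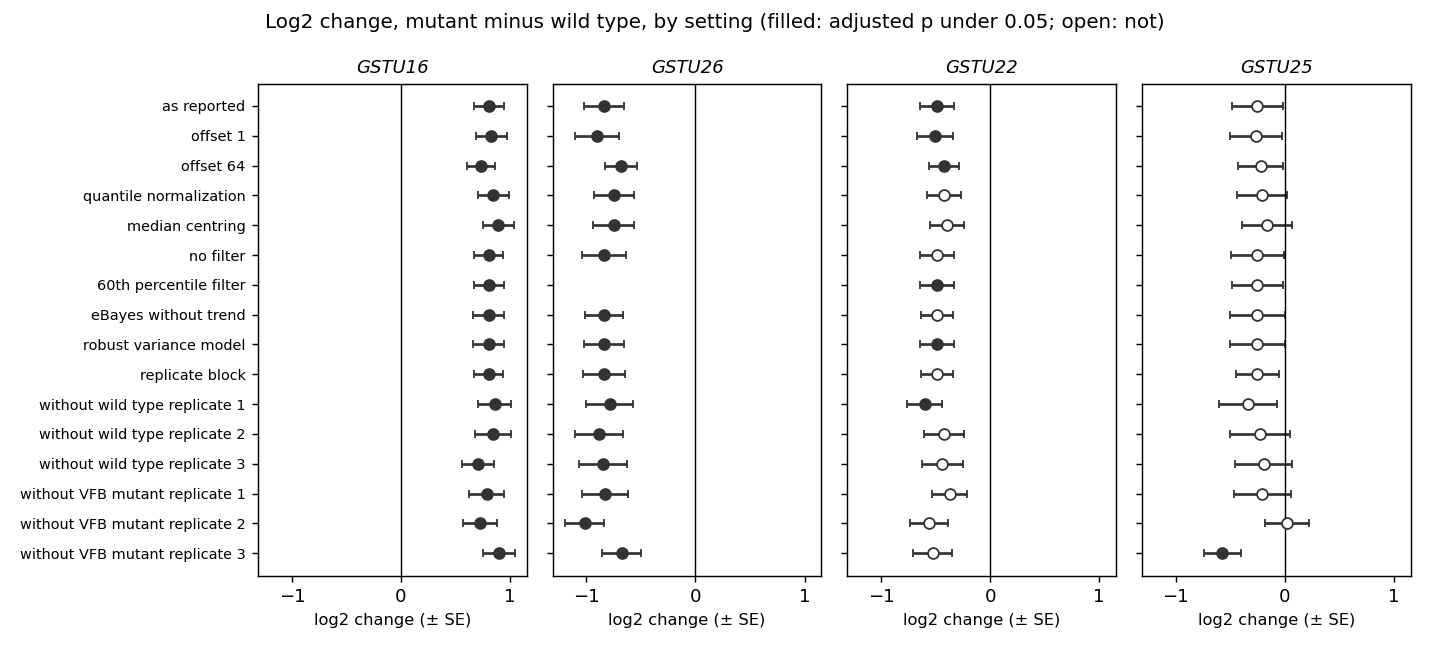
Log2 change, mutant minus wild type, with ± SE, of 4 tau genes under the reported setting (top) and each alternative, filled where the limma adjusted p was under 0.05. GSTU16 and GSTU26 stay filled in each setting where they were tested, GSTU22 is filled in 6 of 16 and GSTU25 in 1, without mutant replicate 3.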

How the data were processed

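Intensities of 22810 probe sets per array were deposited on a linear scale. The submitters' processing notes name MAS5 as their source, with the version not given in the sources used here. With 2% trimmed from either end, the deposited values of every array averaged 500. Array medians ran from 192.9 to 204.2 in wild type and from 184.6 to 189.1 in the mutant, without overlap. The 64 control probe sets were left out of the tests. Gene symbols came from the platform annotation, matched by Entrez number to RefSeq (TAIR10.1), and all 13 glutathione transferases matched. No sequences are shown.

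The mutant was set against wild type with limma 3.58.1 (R 4.3.3) on log2(value + 16), using eBayes with trend and Benjamini-Hochberg adjustment, and the method was tested on simulated data. The genes and lists were chosen with earlier results of these data known. All genes matched by the symbol rule are named, with called list members and up to 3 others per list. The replicates are not said to come from separate cultures, so p-values measure only the spread between these samples, and 3 arrays a group limit the precision. Same-numbered arrays did not deviate together (correlations -0.20, 0.02 and -0.17).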

Additional observations from a re-analysis of the deposited data

How the results depend on the processing

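Alternatives were an offset of 1 or 64, median centring, quantile normalization, testing with no filter or with one at the 60th percentile, eBayes without trend or robust, the replicate number as a block, and leaving out each array. The count of all calls, 2541 as reported, ranged from 1696 to 2562, and that of glutathione transferases, 3 as reported, was 2 or 3, with GSTU16 the gene called higher each time. The count of those called lower, 2 as reported, was 1 under quantile normalization, median centring, the 60th percentile filter, eBayes without trend and the replicate block, and 1 to 2 without 1 array. The 60th percentile filter removed GSTU26, and without filter GSTU26 and GSTF4 were the 2. Without mutant replicate 3 the 2 were GSTU26 and GSTU25 (limma, adjusted p = 0.0409), as GSTU22 was lost there. With the replicate block GSTU22 had a limma adjusted p = 0.0522 and 1988 probe sets were called, but the arrays share only a number. GSTU22 missed the threshold too with median centring (0.0975), quantile normalization (0.0809) and eBayes without trend (0.0529). The pathway count was 1, and 2 after median centring. GSTU20 changed sign under quantile normalization (-0.016) and when replicate 1 of either group was left out, ranging from -0.059 to 0.126 without 1 array. GSTU25 ranged from -0.569 to 0.0247, the latter without mutant replicate 2, and neither was called where its sign changed. GR, MSRB6 and GLX2-1 passed in all 15 alternatives. Dim signals limit the 5 genes under the filter, whose log2 changes depend on the offset.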
